A study of Drosophila melanogaster with 15 samples.

Results

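The transcripts described here are those of the central nervous system (CNS) of control Drosophila larvae, measured on the 3 arrays titled as control CNS tissue, out of 15 arrays in the study. The control larvae carried 1 copy of the driver nsybGal4 (nsybGal4/+), which is active in neurons, and no RNAi construct. The other 12 arrays, not analysed here, came from larvae with the same driver and an RNAi construct against ND-75, UQCR-14, COX5B or ATPsynCf6, subunits of the mitochondrial respiratory chain and ATP synthase, with 3 arrays each. Every sample pooled the whole CNS of 15 wandering larvae, at the end of the third instar, reared at 25 °C. From each, 10 ng of RNA was amplified and labelled with biotin before it was hybridised. RNA was prepared in triplicate, and the labels do not say whether the triplicates came from separate crosses, so the spread given below may be partly technical. No larvae without the driver were among the groups, so these values describe the driver line.

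The wandering larval CNS consists of 2 brain lobes and a ventral nerve cord, and it holds a working larval nervous system beside a growing adult one. Mature larval neurons drive feeding and crawling, while neuroblasts, the neural stem cells, divide asymmetrically and add immature neurons whose synapses form later, in the pupa. Glia wrap these cells, build the blood-brain barrier and pass fuel to neurons. In bulk tissue, fewer cells of a type and less RNA per cell cannot be told apart.

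On each array, genes were ordered by the signal of their brightest probe set and given a percentile from 0 to 100, with 100 for the brightest. Of 18769 probe sets, 13647 matched exactly 1 gene, which gave 11982 genes. A gene was called abundant where all 3 arrays placed it at or above the 90th percentile, moderate where all 3 lay between the 50th and the 90th, and near background where all 3 lay below the 50th. Of the 11982 genes, 758 (6.33%) were abundant, 3974 (33.2%) moderate, 5614 (46.9%) near background and 1636 (13.7%) split between bands. Probe sets differ in how strongly they bind their transcript, so a percentile orders signals and does not measure an amount of RNA. A gene whose probe set performs poorly can lie low although its transcript is present.

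The value table holds no detection calls. As a measured floor, 112 genes of odorant and gustatory receptors were used, which act in sensory neurons outside most of the CNS. Their median percentiles were 15.8, 16.2 and 17.8 on controls 1, 2 and 3, and 110 of the 112 were near background. The exceptions were 1 split gene and the odorant receptor gene Or43b, with moderate signals of 795, 991 and 311. Receptor genes reached signals of 23.9, 28.0 and 40.1 at their own 95th percentile, which corresponds to percentiles of 35.0, 36.8 and 36.6 among all genes. Of the 5614 genes near background, 785 exceeded this receptor level on all 3 arrays, so that band holds genes above this floor as well as genes at it.

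Control 3 stood apart from controls 1 and 2. Spearman's rank correlation over genes was 0.973 between controls 1 and 2, and it was 0.928 between 1 and 3 and 0.933 between 2 and 3. Genes are not independent replicates, and these values are descriptions. The brightest 1% of genes held 15.4%, 11.0% and 25.6% of all signal on controls 1, 2 and 3. On control 3, 1895 genes (15.8%) lay at least 10 points above their mean on the other arrays and 1793 (15.0%) at least 10 points below. Their median gene lengths were 1377 bp for the first set and 3958 bp for the second, and the part of transcript length in this difference was not tested. Of the 1636 split genes, 1294 fell in 1 band by controls 1 and 2 alone. Without control 3, 1133 genes (9.46%) were abundant. Printed counts of list members that change by more than 1.5 times without control 3 are given with and without it.

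Gene lists of 5 kinds were then set against this background. Of the 809 genes they hold, 28 serve in more than 1 list. A list's share near the 6.33% abundant or the 46.9% near background of all genes is not a result about that list. Metabolic and housekeeping genes stood highest, with a median percentile of 92.9 ± 0.6, and 132 of the 260 ranked members were abundant. This class, called metabolic below, also holds the ribosomal protein, translation factor, proteasome and stress protein lists. Glial genes had a median of 78.5 ± 1.7, with 15 of 51 abundant and 2 near background. Stem cell and proliferation genes had a median of 73.3 ± 2.7, and most of them, 87 of 150, were moderate. Neuronal genes lay in every band, with 29 of 225 abundant, 76 moderate and 69 near background around a median of 67.5 ± 2.5. Without control 3 the abundant counts were 50 for neuronal genes, 28 for stem cell and proliferation genes and 5 for other tissues, against 144 for metabolic and 17 for glial genes. Split members without it numbered 9 of 51 among neuronal, 1 of 7 among glial, 10 of 36 among stem cell, 11 of 46 among metabolic and 10 of 33 among other genes. Markers of other tissues and hormone-response genes had a median of 43.6 ± 1.1, with 2 of 137 abundant. The medians are given with the SD over 3 arrays, and the median of all genes is 50 by construction.

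**Figure D1:**
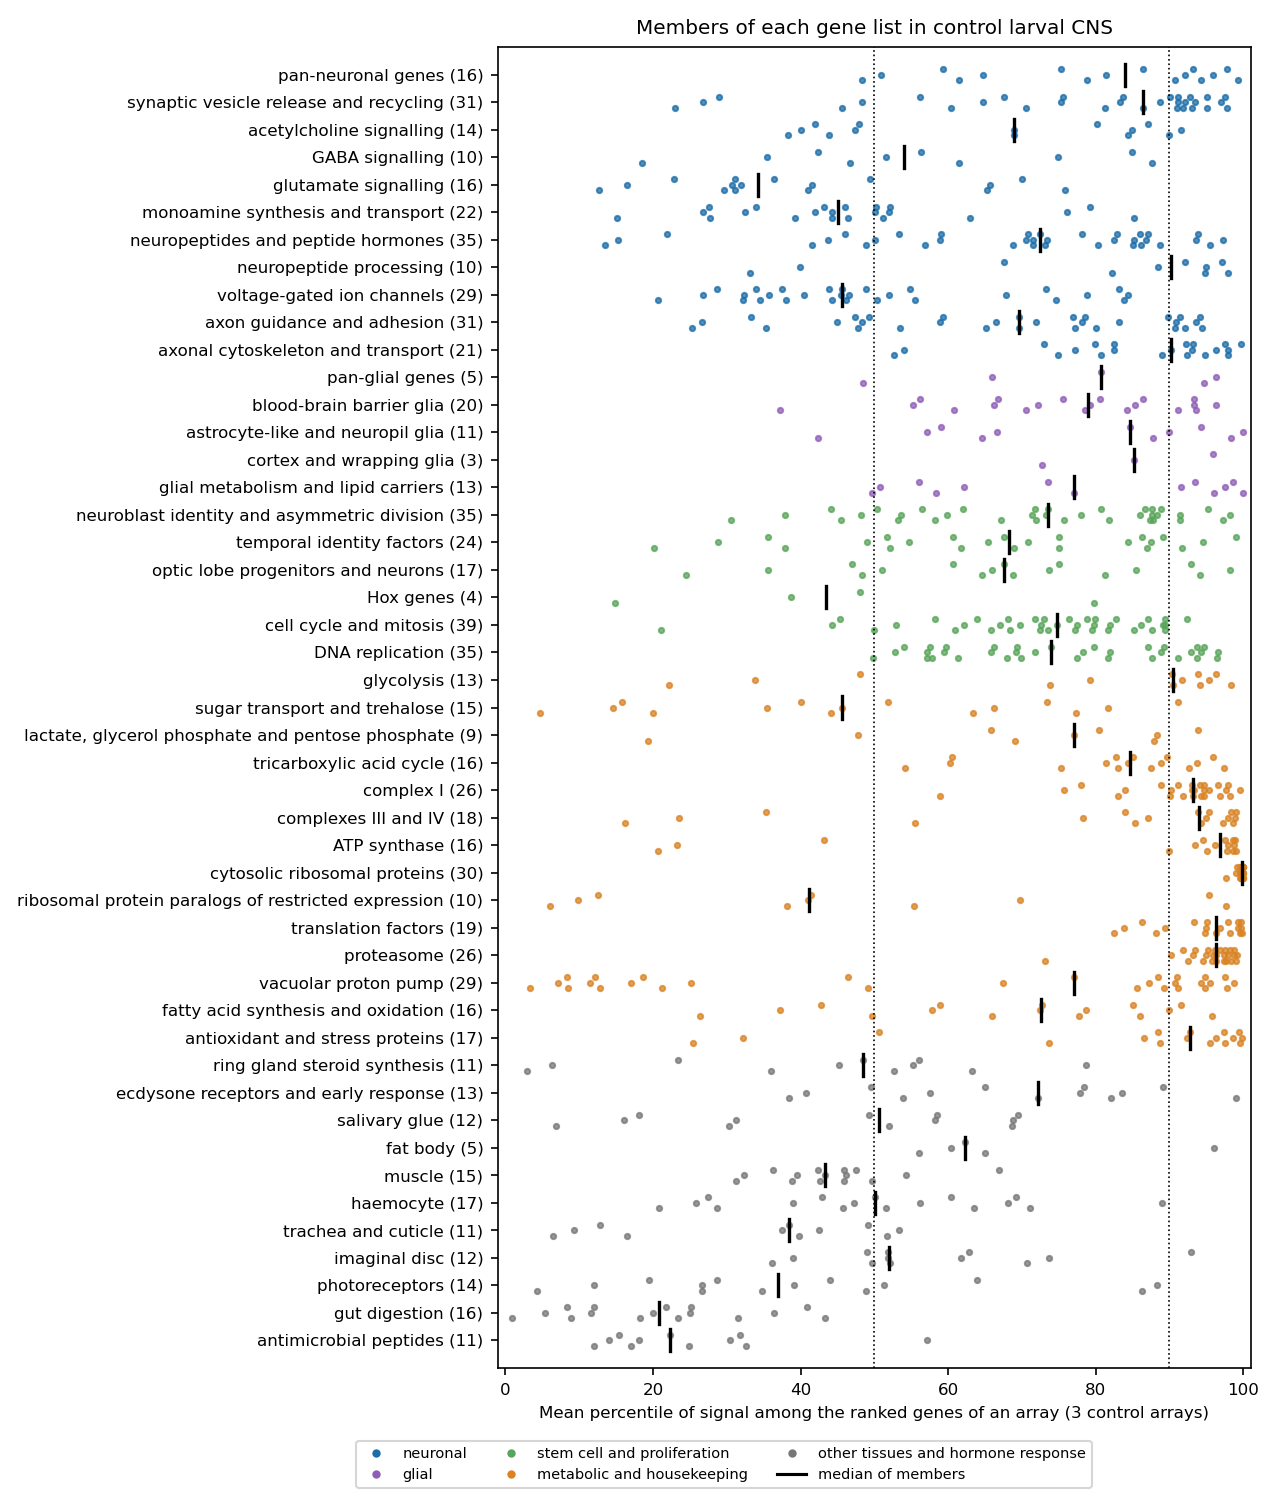
Mean percentile of signal over the 3 control arrays for every ranked member of 47 gene lists (points; x axis from 0 to 100), with the number of ranked members beside each list name, the median of the members as a bar, and the 50th and 90th percentiles dotted. Ribosomal, proteasome and ATP synthase genes crowd the right edge, ion channel and transmitter genes extend far to the left, and gut genes lie entirely left of the 50th percentile.

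Among the ranked genes, the brightest were those of protein synthesis and of 2 small lipid-binding or odorant-binding proteins. This order covers annotated genes only, since 51 of the brightest 100 probe sets had no single gene and were not ranked. Of the 20 genes of highest mean percentile, 14 encode cytosolic ribosomal proteins. RpL41, which encodes a very small ribosomal protein, ranked at the top on all 3 arrays with signals of 24010, 13835 and 58359. Directly below it came Obp44a, a member of the odorant-binding protein family that is expressed in larval CNS glia, at 22191, 12644 and 47329. The fatty acid binding protein gene fabp reached 19341, 12177 and 42445. Control 3 had the highest and control 2 the lowest signal for each of these 3 genes, while their percentiles differed by under 0.1 points between arrays. The remaining members of the top 20 were tsr, which encodes the actin-severing protein cofilin, the translation factor gene eEF5, the adaptor gene 14-3-3epsilon and CG30172.

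**Figure D2:**
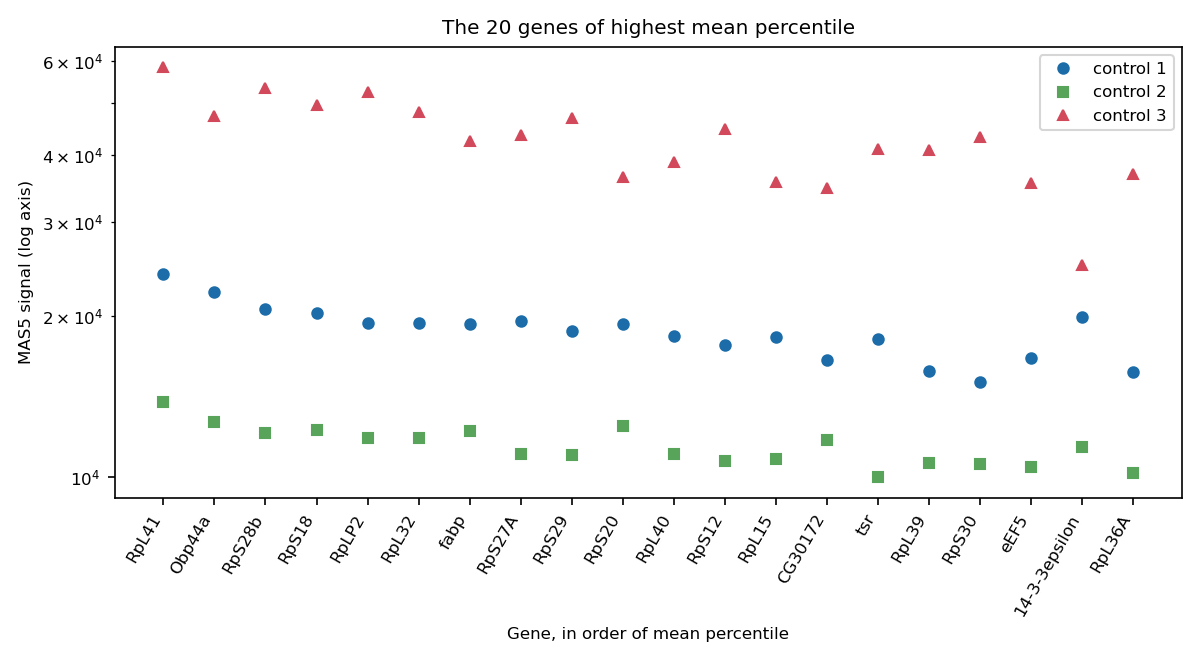
MAS5 signal (log axis) of the 20 genes of highest mean percentile on control 1 (circles), control 2 (squares) and control 3 (triangles), ordered from left to right by mean percentile. Control 3 is highest and control 2 lowest for all 20 genes, from RpL41 at 58359 and 13835 downward.

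All 30 ranked cytosolic ribosomal protein genes were abundant, from RpL41 down to RpL34a at a mean percentile of 97.7 ± 1.46 (SD, n = 3). They made up 29 of the 100 highest genes, and their share of all signal was 4.59%, 3.15% and 9.09% on controls 1, 2 and 3. Another 51 ribosomal protein genes written in the list had no probe set of their own in the annotation and were not analysed here. Ribosomal protein paralogs known for restricted expression were mixed. RpL24-like was abundant, at a mean percentile of 97.7 ± 1.63, and RpL10Aa lay at 6.02 ± 3.93 with signals of 0.64, 1.5 and 3.34.

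Translation factors and the proteasome, the cell's main protease, followed closely. Of 19 translation factor genes, 13 were abundant, with eEF5 highest at 99.8 ± 0.02 and eIF5B, which joins the ribosomal subunits, lowest at 82.5 ± 6.27. Of 26 proteasome genes, 24 were abundant. The core subunit gene Prosalpha2 led them, at 10539, 7768 and 13748. Another core subunit gene, Prosalpha4, was the lowest member, with moderate signals of 739, 808 and 844. Among antioxidant and stress proteins 10 of 17 were abundant, led by Hsc70-3, the chaperone of the endoplasmic reticulum, at 99.8 ± 0.15. The heat shock cognate gene Hsc70-2 lay near background at 25.4 ± 7.05, and catalase (Cat) was moderate at 73.7 ± 7.23.

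Oxidative phosphorylation genes were among the brightest metabolic genes. Complex I, which feeds electrons from NADH into the chain, had 14 of 26 ranked genes abundant, 10 split and none near background. Its highest member, ND-MLRQ, reached 12544, 8406 and 33299. Its lowest was ND-75, the large iron-sulphur subunit, whose signals of 335, 387 and 304 gave a mean percentile of 58.9 ± 0.87. All 26 genes lay higher on control 3 than on the mean of controls 1 and 2, by a median of 5.0 points, against a median of -0.7 points over all genes. Without control 1, 17 of the 26 were abundant, and without control 3, 3 were split.

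The genes that the other larvae of the study target were at unlike signals in the control CNS. UQCR-14, a small subunit of complex III, gave 7959, 6616 and 20967, and was the highest of 18 ranked genes of complexes III and IV. COX5B of complex IV gave 2725, 2952 and 8404, and ATPsynCF6 of the ATP synthase gave 3108, 3003 and 3579. These 3 genes were abundant, and ND-75 was moderate on every array. RFeSP, the Rieske iron-sulphur protein of complex III, was moderate at 78.2 ± 6.91. Its second probe set was dimmer, with a mean percentile of 49.5.

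Complexes III and IV had 10 of 18 genes abundant, and the ATP synthase 12 of 16, with ATPsynF highest at 99.0 ± 0.12. The members near background in these lists were duplicates of standard subunit genes, among them COX6AL at 16.2 ± 0.81 and ATPsynCF6L at 20.7 ± 8.11. In the fly such duplicates are known mainly from testis. A set of 13 pairs of a standard gene and its duplicate was written after the values were seen, from the mitochondrial, vacuolar pump and ribosomal lists. The order within pairs is therefore a description, and not every version of a subunit was paired. Of the Vha100 genes left out, Vha100-2 was moderate at 67.4, and Vha100-3 and Vha100-5 lay at 11.5 and 8.53. In all 13 pairs the standard gene lay above its duplicate on every array. The standard genes had mean percentiles of 90.8 to 100.0, with 9 abundant and 4 split, and the duplicates 3.38 to 41.4, all near background.

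**Figure D3:**
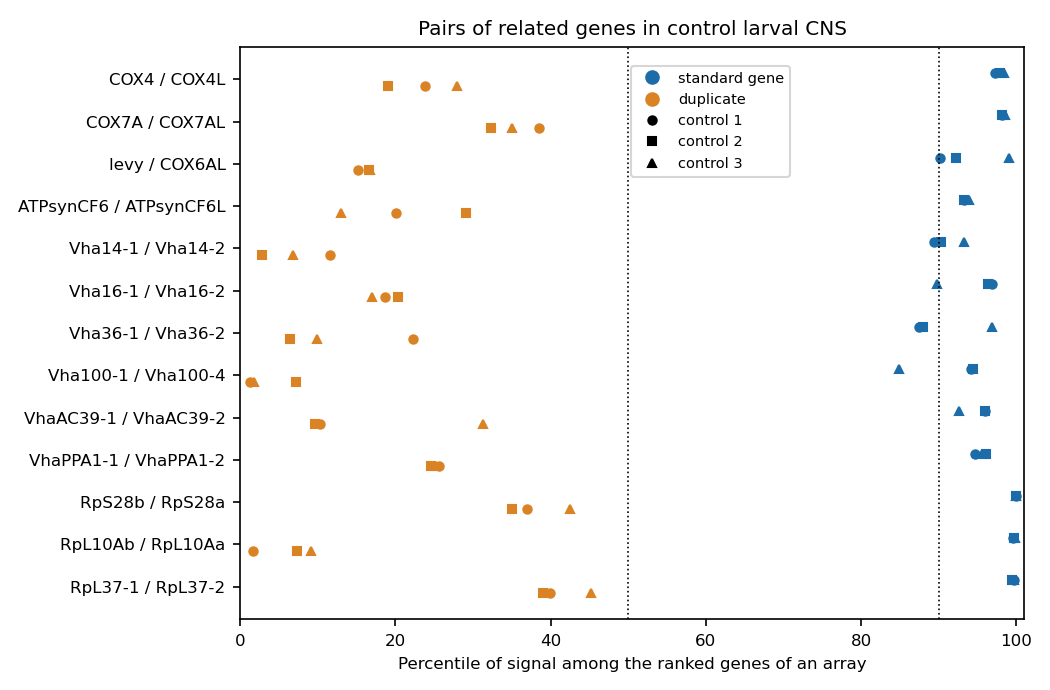
Percentile of signal on each control array for 13 pairs of genes that encode versions of the same subunit, the standard gene and its duplicate (circles, squares and triangles for controls 1, 2 and 3), with the 50th and 90th percentiles dotted. The pairs were written after the values were seen, so the gap between the 2 sets describes these pairs only. The standard genes have mean percentiles of 90.8 to 100.0 and the duplicates 3.38 to 41.4.

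The vacuolar proton pump, which acidifies synaptic vesicles and lysosomes, also has duplicated subunit genes. Of 29 genes in its list, 6 (20.7%) were abundant, against 6.33% of all genes. Another 12 (41.4%) were near background, near the 46.9% of all genes, and 8 were split. Vha13 was highest at 98.7 ± 0.43 and Vha100-4 lowest at 3.38 ± 3.32. Without control 3 the count of abundant genes was 9 and that of split genes 2.

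In glycolysis 4 of 13 genes were abundant, 4 split and 3 near background, and without control 3, 2 were split. Enolase (Eno) gave 7173, 6433 and 8364, and the glyceraldehyde phosphate dehydrogenase gene Gapdh1 gave 3887, 4251 and 6732. At the entry steps, the hexokinase gene Hex-A gave 884, 1100 and 556 and the phosphofructokinase gene Pfk gave 1082, 1465 and 861, both moderate. The isomerase gene Pgi, whose step lies between these, was split at 4093, 4558 and 2130. Other hexokinase genes were near background, with Hex-C at 33.8 ± 5.22 and Hex-t1, known from testis, lowest at 22.2 ± 6.49. The tricarboxylic acid cycle list had 4 of 16 genes abundant and none near background. It ran from the isocitrate dehydrogenase gene Idh at 97.3 ± 1.96 to the citrate lyase gene ATPCL at 54.2 ± 12.3. The list also holds enzymes beside the cycle, such as ATPCL and the NADP-dependent Idh. Of the cycle's own isocitrate dehydrogenase genes, Idh3a was split at 89.7 ± 2.9. Idh3g and Idh3b were moderate at 60.5 ± 3.3 and 60.3 ± 3.13.

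The list of sugar transport and trehalose had a median percentile of 46.2 ± 3.4, against 90.2 ± 1.4 for glycolysis. No gene of 15 in the sugar list was abundant, against 6.33% of all genes. In it 8 (53.3%) were near background, near the 46.9% of all genes. Without control 3 the abundant count was 1, the glycogen synthase gene Glys at 3113, 3350 and 1504. Trehalase (Treh), which splits the blood sugar trehalose, was moderate at 1308, 1677 and 932. The gene for making trehalose, Tps1, a fat body enzyme in the larva, was near background with a mean percentile of 15.9 ± 8.31. The transporter genes Glut1 and Tret1-1 were moderate at 77.3 ± 12.3 and 66.3 ± 4.63, and sut3 was lowest at 4.69 ± 4.31. The other probe sets of Glut1 were dimmer, with mean percentiles of 37.4 and 39.9. In the list of lactate, glycerol phosphate and pentose phosphate genes, the malate dehydrogenase gene Mdh1 was highest at 93.9 ± 3.31. It was the 1 abundant gene of 9, and without control 3 there were 2. The glycerol phosphate dehydrogenase gene Gpdh1 was moderate at 69.0 ± 1.8 and Gpdh2 near background at 19.3 ± 15.0. Of 16 fatty acid genes, 2 were abundant and 8 moderate, between yip2, a thiolase gene of beta-oxidation, at 95.7 ± 0.77 and the fatty acid synthase gene FASN2 at 26.4 ± 3.63.

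The neuronal identity of the tissue was visible in the pan-neuronal list, in which 4 of 16 genes were abundant, 7 moderate, 4 split and 1 near background. The RNA-binding protein gene elav, the standard marker of neurons, gave 9888, 6702 and 4496 on controls 1, 2 and 3. The sodium pump subunit gene nrv3 was highest at 13647, 10308 and 10914, and Appl, the fly amyloid precursor gene, gave 6907, 5377 and 2548. The related RNA-binding gene fne gave 5209, 4147 and 2054 and was split, since control 3 placed it at a percentile of 89.0. Without control 3, 7 of the 16 were abundant and 0 split.

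The synaptic list had a median percentile of 86.1 ± 2.3, close to the 84.0 ± 2.4 of the pan-neuronal list, and its members differed widely. The synaptobrevin gene nSyb, which encodes the vesicle protein of transmitter release and whose promoter drives the GAL4 line, was moderate at 714, 607 and 264. The active zone scaffold gene brp was near background by its brightest of 4 probe sets, at 143, 116 and 124, although above the chemoreceptor level on all arrays. The SNARE partner gene Snap25 was moderate at 1044, 1224 and 539. The priming factor gene unc-13 was split at 2490, 2463 and 1417, and the complexin gene cpx was moderate at 1576, 1797 and 1944. Among the highest members were the clathrin genes, with the light chain (Clc) at 97.8 ± 0.57 and the heavy chain (Chc) at 97.5 ± 2.67. The vesicle chaperone gene Csp gave 3843, 4232 and 3460. Of 31 genes in the list 9 were abundant, and 15 without control 3, and the lowest was Sytbeta, a synaptotagmin gene, at 23.0 ± 18.3.

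No gene of the acetylcholine, GABA, glutamate or monoamine lists was abundant, against 6.33% of all genes. Without control 3 the acetylcholine list had 2 abundant genes and the other lists still had 0. The acetylcholine list had the highest median of the 4. The vesicular transporter gene VAChT gave 2847, 3152 and 1332, the acetylcholinesterase gene Ace gave 3546, 2887 and 1791, and the synthesis gene ChAT gave 1155, 1750 and 773. Acetylcholine is the main fast excitatory transmitter of the fly CNS. Its receptor subunit genes ranged from nAChRbeta1 at 87.1 ± 2.61 to nAChRbeta3, lowest of 14 genes, at 38.3 ± 2.15.

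For GABA, the main inhibitory transmitter, the synthesis gene Gad1 gave 1890, 2859 and 1229 and was split around the 90th percentile. The vesicular transporter gene VGAT was just inside the moderate band at 164, 199 and 184. The receptor gene Rdl was moderate at 480, 556 and 249, and Grd was lowest of 10 genes at 18.5 ± 6.82. For glutamate, the transmitter of fly motor neurons, the vesicular transporter gene VGlut lay at 15.2, 19.1 and 27.6, and both of its probe sets were below the chemoreceptor level on every array. Of 16 glutamate genes, 11 (68.8%) were near background, against 46.9% of all genes. These include GluRIIA, GluRIIB, GluRIID and GluRIIE, subunit genes of the muscle receptor, so the share depends on how the list was made. The kainate-type receptor gene KaiR1D was highest at 1434, 1316 and 388, and the NMDA receptor gene Nmdar1 was moderate at 762, 916 and 406. The muscle receptor subunit gene GluRIIE was lowest at 12.7 ± 10.6.

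Of 22 genes of monoamine synthesis, transport and receptors, 13 (59.1%) were near background, against 46.9% of all genes. The vesicular monoamine transporter gene Vmat was the highest at 1982, 2239 and 905 on its brightest probe set, while the dimmest of its 4 had a mean percentile of 20.5. The dopa decarboxylase gene Ddc was moderate at 909, 1294 and 670. The tyrosine hydroxylase gene ple, which commits cells to dopamine, was near background at 75.2, 134 and 41.0, and the tyramine gene Tdc2 lay at 55.0, 62 and 57.9. Both exceeded the chemoreceptor level on all 3 arrays. The lowest member, Tdc1, lay at 15.2 ± 7.61.

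**Figure D4:**
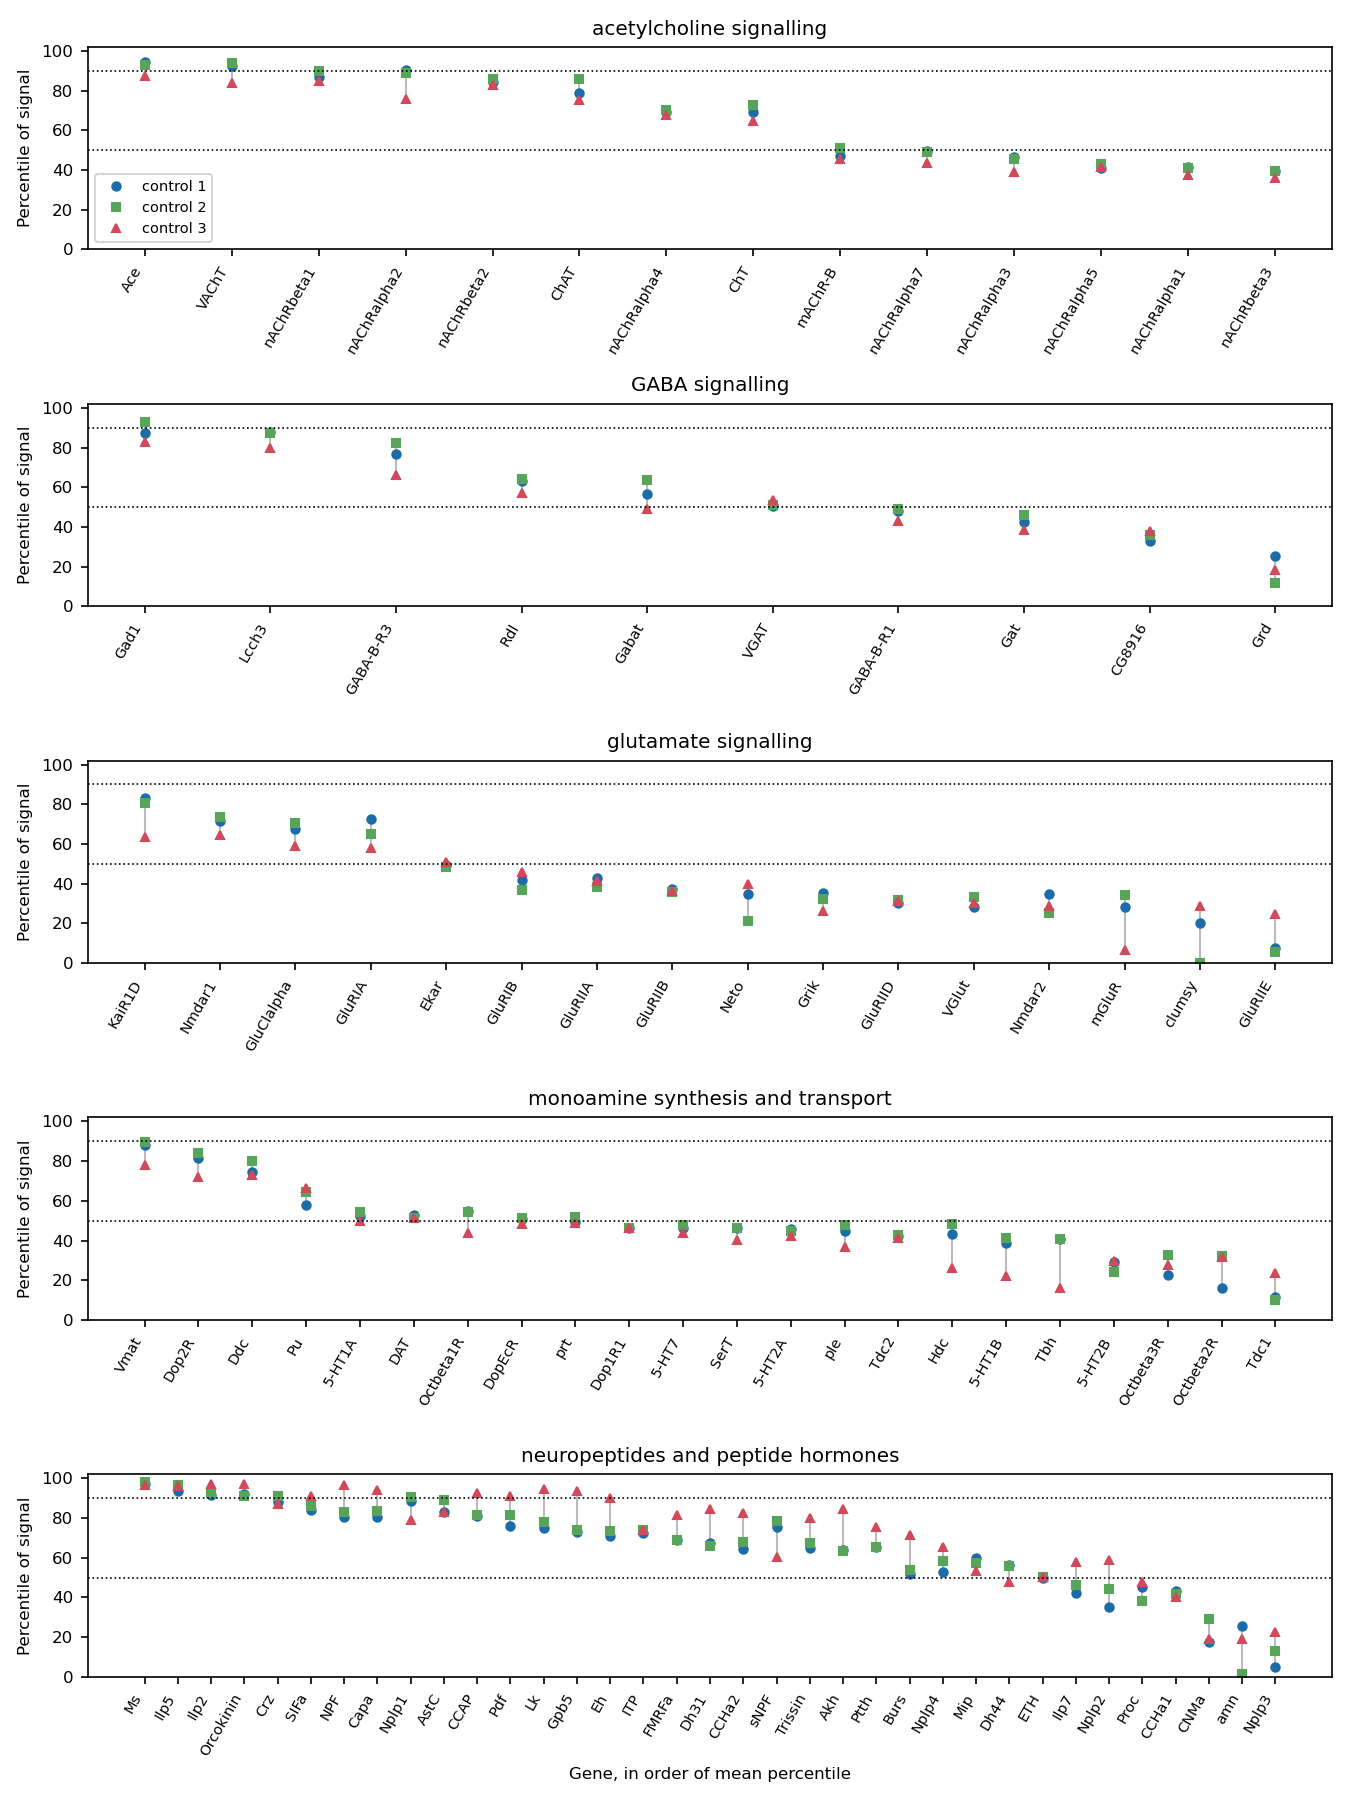
Percentile of signal on control 1 (circles), control 2 (squares) and control 3 (triangles) for genes of the acetylcholine, GABA, glutamate, monoamine and neuropeptide lists (1 panel each), with the 50th and 90th percentiles dotted and genes in order of mean percentile. Only neuropeptide genes lie above the upper line on all 3 arrays, and among glutamate genes VGlut has a mean percentile of 30.8.

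Of 35 neuropeptide and peptide hormone genes, 4 were abundant on all arrays, although each is made by few neurons. These were myosuppressin (Ms) at 5022, 5192 and 6235, the insulin-like peptide genes Ilp5 at 3296, 4083 and 5368 and Ilp2 at 2692, 2803 and 7236, and Orcokinin at 2845, 2526 and 6961. Another 14 were split, and without control 3 the split count was 3. Among the 14 were neuropeptide F (NPF) at 1237, 1517 and 6284 and the clock neuron peptide gene Pdf at 962, 1391 and 2612. The median of the list was 69.0, 69.1 and 81.3 on controls 1, 2 and 3, against 69.1, 71.5 and 66.1 in the acetylcholine list, so the neuropeptide median was the higher of these only on control 3. In all, 26 of the 35 genes lay higher on control 3, as did 5602 of the 11982 genes ranked. Nplp3 was lowest at 13.4 ± 8.85.

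Of 10 genes that process or store peptides, 5 were abundant: the dense core vesicle genes IA-2 and Cadps, the convertase chaperone gene 7B2 and the amidation genes Phm and Pal2. IA-2 gave 8790, 6673 and 5173 on the brightest of 3 probe sets, and the others had mean percentiles of 12.1 and 18.5. Phm gave 4286, 3833 and 3096. The genes of cutting enzymes lay lower, with the proprotein convertase gene amon split at 2713, 2789 and 1107 and Fur2 moderate at 708, 706 and 392. The carboxypeptidase gene svr was near background at 41.0, 43.4 and 49.9. The transcription factor gene dimm, which sets up peptidergic cells, was the lowest of the list at 33.1 ± 2.72.

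The ion channel list, mostly of voltage-gated channels, which shape action potentials, had no abundant member among 29. In it 16 (55.2%) were near background, against 46.9% of all genes. It also holds genes of channels of other kinds, such as Irk1, Ork1 and SK. The calcium channel subunit gene stj was highest at 1998, 2214 and 789, and the presynaptic calcium channel gene cac was moderate at 1171, 1568 and 668. The only voltage-gated sodium channel gene known in the fly, para, lay at 134, 146 and 129, just below the 50th percentile on each array. The potassium channel gene Sh was moderate at 618, 823 and 401 on the brightest of 7 probe sets, the dimmest of which had a mean percentile of 13.3. Shab lay at 32.3 ± 6.43 and eag was lowest at 20.6 ± 9.22.

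Genes of axon growth and shape were higher. Among 31 guidance and adhesion genes 3 were abundant and 14 moderate, and without control 3 the abundant count was 8. The Slit receptor gene robo1 was highest at 4456, 4275 and 2342, and sli, its ligand made by midline cells, was lowest at 4.5, 13.4 and 31.5. Among 21 genes of the axonal cytoskeleton and transport 6 were abundant and none near background, and without control 3 the abundant count was 12. The beta-tubulin gene betaTub56D led at 16101, 10223 and 24287, and the synaptic vesicle kinesin gene unc-104 gave 4538, 3823 and 2979. The alpha-tubulin gene alphaTub84D was lowest, at 52.7 ± 3.83.

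Each of the 5 glial lists held at least 1 abundant gene. The homeodomain gene repo, which marks nearly all glia except those of the midline, was abundant at 3932, 4337 and 2863. The sodium pump subunit gene nrv2 was highest of the pan-glial list at 4679, 4514 and 4527. The glial determinants gcm and gcm2, which act when glia are born, were lower, with gcm at 760, 697 and 257 and gcm2, the lowest, at 188, 176 and 72.5.

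Astrocyte-like glia, which take up transmitter in the neuropil, contributed Obp44a and the abundant gene alrm, which gave 5941, 5253 and 17899. The amino acid transporter gene Eaat2 was split at 2434, 2421 and 1178, and the GABA transporter gene Gat was near background and lowest of 11 genes, with a mean percentile of 42.4 ± 3.71. For cortex and wrapping glia, wrapper was abundant at 4507, 3618 and 5138, and zyd, lowest of 3 genes, was moderate at 808, 956 and 594.

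In the blood-brain barrier list 4 of 20 genes were abundant, 12 moderate and 1 near background. The septate junction gene Nrx-IV gave 3823, 3471 and 2533, and the efflux pump gene Mdr65 gave 3406, 3518 and 2537. The barrier receptor gene moody was moderate at 633, 717 and 375, and vari, a septate junction scaffold gene, was lowest at 37.3 ± 1.81. Of 13 genes of glial metabolism and lipid carriers, 6 were abundant. They include apolpp, which is also the abundant member of the fat body list, and Desat1, which is also in the fatty acid list. The lipid droplet gene Lsd-2 gave 9204, 7093 and 8023, and its relative Lsd-1 was lowest at 232, 162 and 92.1.

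Most members of the stem cell and proliferation lists, 87 of 150, were in the moderate band, against 33.2% of all genes. Among 35 genes of neuroblast identity and asymmetric division 3 (8.57%) were abundant, against 6.33% of all genes. Another 18 were moderate, 10 split and 4 near background, and without control 3, 8 were abundant and 4 split. The brightest were genes active in the neuroblast's daughters: pros, the homeodomain gene that ends self-renewal, gave 9717, 6866 and 5887, and nerfin-1, which keeps young neurons differentiated, gave 7625, 6009 and 3854. The adaptor gene mira, which carries Pros protein into the daughter cell, was moderate at 1188, 1257 and 728. The neuroblast genes ase and wor were moderate, with ase at 1984, 2308 and 1203 and wor at 839, 925 and 649. The spindle orientation gene insc was split at 2924, 3420 and 1691. The self-renewal gene dpn lay near the 50th percentile at 151, 209 and 303, and ac, a proneural gene, was lowest at 30.5 ± 10.2.

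Temporal identity factors, which tell neuroblasts and neurons their age, covered a wide range. The ecdysone-induced gene br was abundant, at 12803, 8477 and 8237 on the brightest of 5 probe sets. Imp and Syp, RNA-binding protein genes used early and late in larval neuroblasts, were both split, with Imp at 4745, 4624 and 2147 and Syp at 2630, 2474 and 1042. The late gene Eip93F gave 3224, 2816 and 1107, and chinmo gave 1821, 2101 and 886. Their dimmest probe sets had mean percentiles of 37.7 and 39.8. The early embryonic factor gene hb was lowest of 24 genes at 10.6, 9.13 and 6.73, below the chemoreceptor level on each array. Of the list, 2 (8.33%) were abundant, against 6.33% of all genes. Without control 3, 6 were abundant, against 9.46% of all genes. On control 3, 21 of the 24 lay lower, as did 6375 of the 11982 genes ranked.

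The optic lobes hold a large part of the dividing tissue at this age. Of 17 genes of optic lobe progenitors and neurons 1 was abundant, 9 moderate and 4 split, and without control 3, 3 were abundant and 2 split. The 1 abundant gene was lola, on the brightest of its 15 probe sets, with the dimmest at a mean percentile of 27.3. The retinal determination gene dac was split at 3931, 3565 and 1910, and the cadherin gene shg was lowest at 24.5 ± 16.9. All 17 lay lower on control 3, as did 6375 of the 11982 genes ranked. Of 4 ranked Hox genes, Antp, a gene of the thoracic nerve cord, was moderate at 1483, 1666 and 581, and pb was lowest at 14.9 ± 12.4.

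Of 39 cell cycle and mitosis genes 31 were moderate and 3 near background. The 1 abundant gene was CycE, which starts DNA synthesis, at 3102, 3131 and 2381, and without control 3 there were 3. The mitotic cyclin gene CycB was moderate at 1861, 2254 and 1134, and sub, a kinesin gene of the female meiotic spindle, was lowest at 21.1 ± 12.6. Of 35 DNA replication genes 5 were abundant, 20 moderate and 0 near background, and without control 3 the abundant count was 8. The sliding clamp gene PCNA was highest at 4038, 4401 and 7347, and Top1 was lowest at 49.8 ± 4.67.

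Steroid hormone genes bear on the age of the larvae and on the ring gland, the endocrine gland attached to the brain. In the list of ecdysone receptors and early response 1 of 13 genes was abundant, 7 moderate and 2 near background, with br the highest and Hr38 lowest at 38.5 ± 3.43. Without control 3 the abundant count was 2. The ecdysone receptor gene EcR was moderate at 430, 507 and 597. Ring gland steroid enzyme genes were uneven between arrays: phtm gave 63.1, 170 and 760 and sad gave 136, 357 and 1329, with control 3 highest for both. The gene spo, of an early step of ecdysone synthesis, was near background at 122, 158 and 115, although above the chemoreceptor level on all 3 arrays. Its relative spok was split at 147, 299 and 332. Start1, which carries sterols, was highest of 11 genes at 78.7 ± 8.06, and jhamt, which makes juvenile hormone, was lowest at 2.91 ± 2.73. Signals summed over these 11 genes were 1471, 2122 and 5348. Of the 11, 5 (45.5%) were near background, against 46.9% of all genes. Without control 3, 8 were near background, against 49.1% of all genes.

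Markers of other tissues that a dissection can carry moved both ways between arrays. Salivary glue genes had 5 of 12 near background and 7 split, and without control 3, 8 were near background and 1 split. Their summed signal was 1044, 1982 and 13924. The glue genes Sgs3, Sgs7 and Sgs8 gave 2902, 3650 and 4574 on control 3, against 262, 188 and 168 on control 1 and 468, 434 and 442 on control 2. None of the 3 was at 0. Glue gene ng4 was lowest at 6.83 ± 5.18. The part of gland RNA in the other differences of control 3 was not tested.

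The 5 ranked fat body genes were mixed. The storage protein gene Lsp2 gave 238, 323 and 1429 and Fbp1 gave 165, 242 and 880, again highest on control 3. The lipoprotein gene apolpp was abundant at 6587, 4937 and 2916, and Apoltp was lowest at 56.0 ± 3.57. The summed signal of the list was 7524, 5973 and 7192, most of it from apolpp on controls 1 and 2.

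Gut digestion and antimicrobial peptide genes were mostly at the chemoreceptor floor, with 2 of 16 and 1 of 11 above it on all 3 arrays. Muscle genes exceeded it on all arrays in 10 of 15 cases and trachea and cuticle genes in 5 of 11. Over all 11982 genes, 7785, 7573 and 7598 exceeded it on controls 1, 2 and 3, each array taken alone. Muscle had 10 of 15 genes near background and none abundant, from the troponin C gene TpnC73F at 66.9 ± 6.23 to Mlp60A at 31.3 ± 11.2, with up, a troponin T gene, at 42.6 ± 3.43. Trachea and cuticle had 8 of 11 near background, from Gasp at 53.4 ± 3.02 to TwdlT at 6.41 ± 5.91. All 16 gut digestion genes were near background, from Jon65Aiii at 43.3 ± 0.81 to LysP at 0.91 ± 1.31. Among antimicrobial peptide genes 10 of 11 were near background, with Drsl5 split at 160, 99.9 and 757 and Drsl4 lowest at 12.1 ± 8.27.

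Haemocytes, the blood cells, had 7 of 17 genes (41.2%) near background, against 46.9% of all genes. Their markers Hml, NimC1 and He had mean percentiles of 47.2 ± 3.52, 39.0 ± 3.51 and 50.2 ± 5.27. Another 5 genes of the list, SPARC, Pxn, Col4a1, vkg and PPO2, were moderate, with mean percentiles of 60.3 to 71.0. The scavenger receptor gene crq was higher, at 2220, 2681 and 1518, and the blood cell factor gene srp was lowest at 20.8 ± 3.77. Imaginal disc genes had 7 of 12 moderate, and the disc markers vg and dpp had mean percentiles of 51.9 ± 0.2 and 49.7 ± 4.58. The T-box gene bi, which also acts in the optic lobe, was highest at 4153, 3674 and 1812, and hh was lowest at 36.2 ± 1.55. Of 14 photoreceptor genes 10 were near background, with Galphaq highest at 2923, 2790 and 1027 and the channel gene trpl lowest at 4.27 ± 2.16. Without control 3 the discs and the photoreceptors had 1 abundant gene each. Summed signals were 7936, 7858 and 4142 for the disc list and 6234, 6835 and 2590 for the photoreceptor list, lowest on control 3.

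Several list shifts on control 3 ran in opposite directions. Its percentile minus the mean of controls 1 and 2 had a median of 25.9 points in the fat body list, 14.8 in salivary glue, 10.0 in neuropeptides, 8.8 in the ring gland and 5.0 in complex I. The median was -12.6 points in Hox genes, -8.1 in temporal identity factors and -7.0 in optic lobe genes, against -0.7 over all genes. Which property of the sample these shifts follow was not tested.

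**Figure D5:**
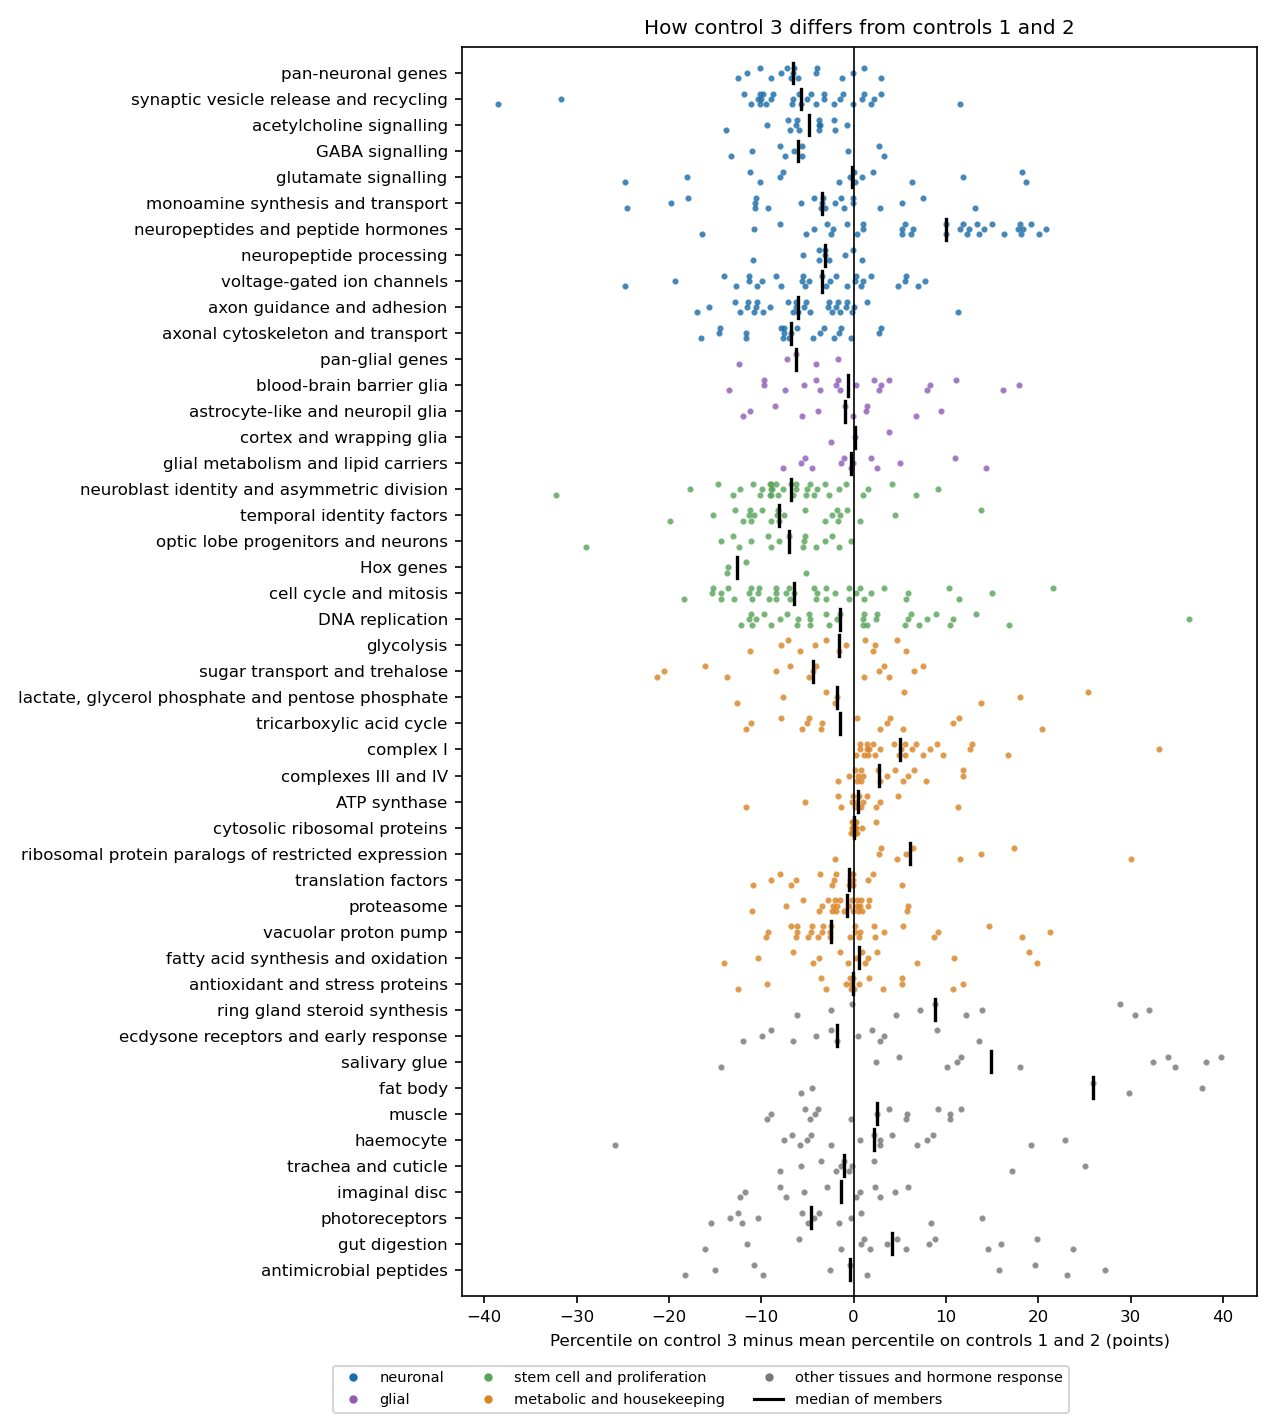
Percentile on control 3 minus the mean percentile on controls 1 and 2 (x axis, points) for every ranked member of 47 gene lists, with the median of each list as a bar and 0 as a line. Salivary glue and fat body genes extend furthest right with medians of 14.8 and 25.9, complex I lies wholly right of 0, and optic lobe genes lie wholly left of it.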

How the data were processed

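Affymetrix arrays measured 18952 probe sets in each sample. The deposited values are linear probe set intensities, which the authors computed with MAS5, per the submitters' processing notes. These also name the Transcriptome Analysis Console and Affymetrix Expression Console. Parameters are not given in the sources used here. The authors' scaling was kept. Analysis used Python 3.11.15, pandas 2.3.3, numpy 2.4.6 and scipy 1.17.1.

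The 183 array control probe sets were set aside. Of the other 18769, 13647 had 1 gene in the array's annotation, 402 had several and 4720 were not listed. Of the brightest 100 probe sets, 51 had no single gene. Symbols and gene lengths came from RefSeq (Release 6 plus ISO1 MT). The probe set with the highest mean of log2(signal + 16) stood for a gene. With 1 group there was no comparison between groups and no test. Errors are SDs over 3 arrays, whose number limits the precision. The banding code was run on simulated arrays with independent noise. These held no shift like that of control 3, so they do not bear on it.

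The members, lists and limits were chosen with earlier results of these data known. The text names genes marked as hallmarks of a list, the highest and lowest member of each list, the 20 genes of highest mean percentile, the 8 highest named by a CG number, and the 10 of largest range between arrays with at least 1 array at or above the 90th percentile. Other named genes were chosen after their values were seen. Alternatives were leaving out each array, the mean over probe sets, probe sets without _s_at and _x_at, ranking over all probe sets, other band limits, the mean percentile, quantile normalization and another pseudocount.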

Additional observations from a re-analysis of the deposited data

How the results depend on the processing

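The number of abundant genes was 350 with the limit at the 95th percentile and 1757 at the 80th, where 2562 were moderate. Leaving out 1 array gave 781 to 1133 abundant genes and 342 to 1490 split genes, with 342 without control 3. With the mean over probe sets the neuronal median percentile was 59.33. Without _s_at and _x_at probe sets the medians were 85.26 for glial, 91.34 for metabolic and 45 for other-tissue genes. Ranked over all probe sets they were 75.3 for neuronal, 83.52 for glial, 79.63 for stem cell, 94.2 for metabolic and 55.94 for other-tissue genes. In each of these settings the class of metabolic and housekeeping genes had the highest median and other-tissue genes the lowest. The median SD of a gene between arrays was 0.41 on the log2 scale, 0.61 with a pseudocount of 1 and 0.13 without control 3. The mean percentile over arrays leaves no gene split, so it gives no value there. Choosing the brightest probe set on each array, added after seeing the data, moved none of the 47 list counts of abundant genes by over 1.5 times. No paired analysis was possible because the 3 control arrays form 1 group and no groups were compared. Without detection calls, the bands do not say whether a transcript was present.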

Other observations

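Among the 77 long noncoding RNA genes ranked, 65 were near background and 3 were abundant. lncRNA:CR33938 gave 16715, 10058 and 24902 on controls 1, 2 and 3, and lncRNA:CR42862 gave 14888, 9905 and 17252 on the brightest of its 3 probe sets. The third, Uhg4, a host gene of small nucleolar RNAs, gave 4644, 3714 and 16989. Genes known only by a CG number made up 16.5% of the abundant genes (125 of 758), 33.4% of the moderate ones and 57.5% of those near background, against 43.5% of all ranked genes. The highest was CG30172 at 16544, 11726 and 34746, followed by CG2852, CG14464 and CG4409, with mean percentiles of 99.5, 99.5 and 99.2. CG42336, CG7646, CG43085 and CG15012 completed the highest 8, each with a mean percentile above 99.

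Chromosome 4, the small autosome, had 11 of its 65 ranked genes abundant (16.9%), against 6.08% to 6.66% on the arms of the other autosomes and on X. They include ATPsynbeta, the adaptor gene Crk and the calsyntenin gene Cals. None of the 7 Y-linked genes left the near-background band. Median gene length was 2261 bp for abundant, 2980 bp for moderate and 1754 bp for near-background genes, against 2266 bp for all. Of the 1094 genes with several probe sets, 33 had both an abundant and a near-background probe set, among them br and Ank2. The genes of widest range between arrays were all highest on control 3: besides the glue genes they were CG14104, CG34166, Obp99b, CG14787, CG3663, CG10184 and the replication gene Psf2. Obp99b gave 283, 360 and 5635, and Psf2 gave 304, 356 and 3326.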
